A study of Homo sapiens with 17 samples.

Results

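RNA from neurons derived from the UTX knockout line KO1 was compared with RNA from wild-type (WT) neurons. The comparison used every library of these 2 groups, 3 from KO1 and 3 from WT, which are 6 of the 8 RNA libraries and of the 17 samples of the series. Both groups came from H9, an established human embryonic stem cell line, at passage 40. The KO1 genotype is UTX-/- and the WT genotype is wild type. Cells of both groups passed through embryoid bodies and neural rosettes. They were expanded to day 20 with retinoic acid (0.2 uM) and FGF2 (20 ng/ml), and taken at day 40, in a neuronal medium with BDNF, GDNF, dibutyryl cAMP and ascorbic acid. The labels do not say whether KO1 is a single clone, where UTX was edited, or whether each replicate was differentiated on its own. The p-values therefore describe the spread among these 6 libraries, which may be technical. Of 60199 gene rows, 18088 had enough counts to be tested.

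UTX, encoded by KDM6A, is a histone demethylase that acts on lysine 27 of histone H3. It also belongs to a COMPASS-type complex that methylates lysine 4 of histone H3 at enhancers. Trimethylated lysine 27 (H3K27me3) is laid down by Polycomb repressive complexes at the promoters of silent developmental genes. UTX is known for opening such genes, HOX clusters among them, as cells differentiate.

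The promoters of BDNF and CDKN2B are shown because both genes were above WT in every KO1 library and the deposited H3K27me3 peak lists place a peak over them. They are RefSeq sequences of GRCh38.p14, from 250 bases before to 50 after a start site, minus strand, with CG dinucleotides in capitals.
BDNF, chr11:27721981-27722280: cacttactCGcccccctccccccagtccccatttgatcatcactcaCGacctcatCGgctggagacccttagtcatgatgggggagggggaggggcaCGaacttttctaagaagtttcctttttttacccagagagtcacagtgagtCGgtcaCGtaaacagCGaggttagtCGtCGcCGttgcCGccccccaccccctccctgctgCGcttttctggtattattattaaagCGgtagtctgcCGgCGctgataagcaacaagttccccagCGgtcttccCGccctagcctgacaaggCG
BDNF, chr11:27720730-27721029: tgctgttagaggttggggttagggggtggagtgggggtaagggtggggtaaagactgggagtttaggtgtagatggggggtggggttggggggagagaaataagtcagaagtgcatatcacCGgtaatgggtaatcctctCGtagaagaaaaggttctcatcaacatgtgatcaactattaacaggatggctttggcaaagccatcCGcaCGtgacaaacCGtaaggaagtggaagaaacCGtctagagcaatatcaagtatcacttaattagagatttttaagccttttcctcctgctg
CDKN2B, chr9:22009256-22009555: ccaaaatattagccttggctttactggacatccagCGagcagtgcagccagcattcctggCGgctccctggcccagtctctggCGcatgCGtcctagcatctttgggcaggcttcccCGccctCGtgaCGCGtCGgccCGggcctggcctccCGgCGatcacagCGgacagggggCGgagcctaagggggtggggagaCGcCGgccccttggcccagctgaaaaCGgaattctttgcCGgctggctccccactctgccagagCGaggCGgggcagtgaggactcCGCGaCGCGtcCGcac
The first BDNF window held 18 CG dinucleotides and the second held 6, while the CDKN2B window held 25. The median over 35116 promoters of the table was 14, and 44.5%, 66.3% and 32% of them held at least as many CG as these 3 windows, in that order. Both BDNF windows shown were overlapped by a peak in the KO list and by a peak in the WT list. The table holds 5 BDNF starts, and the 3 not shown differed: 1 window was overlapped by a WT peak alone, 1 by a KO peak alone and 1 by neither. The CDKN2B window was overlapped by a peak in the WT list, and the nearest peak of the KO list lay within 2 kb.

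Library totals were 18.7, 21.6 and 31.5 M estimated counts in KO1 (M for mega) and 23.9, 27.8 and 17.4 M in WT. KO1 replicate 2 stood apart from the other 5 libraries. Its median absolute log2 difference from any of them was 0.558 to 0.601, against 0.218 between KO1 replicates 1 and 3 and 0.245 to 0.272 between WT libraries. In it, 825 genes lay over 4-fold above and 944 over 4-fold below the nearest other KO1 library. The 10 most abundant genes took 10.8% of its counts, against 4.82% to 5.39% in the other 5 libraries.

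The markers of the labelled cell type were present in both groups but not evenly. The summed level of 11 neuron markers, which include MAP2, DCX and SNAP25, was 4121, 821 and 5007 CPM (counts scaled per mega-count, with TMM) in KO1 replicates 1 to 3, against 3852, 5715 and 3810 CPM in WT. The 6 neural progenitor markers summed to 1824, 266.5 and 1840 CPM in KO1 and to 1829, 1980 and 2191 CPM in WT. KO1 replicate 2 was the low library for both, and the other KO1 libraries lay within or close to the WT range. The 9 mesenchymal markers, led by the collagen genes COL1A1, COL1A2 and COL3A1, summed to 646, 65040 and 820 CPM in KO1, against 561, 61.3 and 1568 CPM in WT. All 9 were above 10 CPM in KO1 replicate 2. In bulk RNA, more cells of a type and more RNA per cell cannot be told apart.

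**Figure D1:**
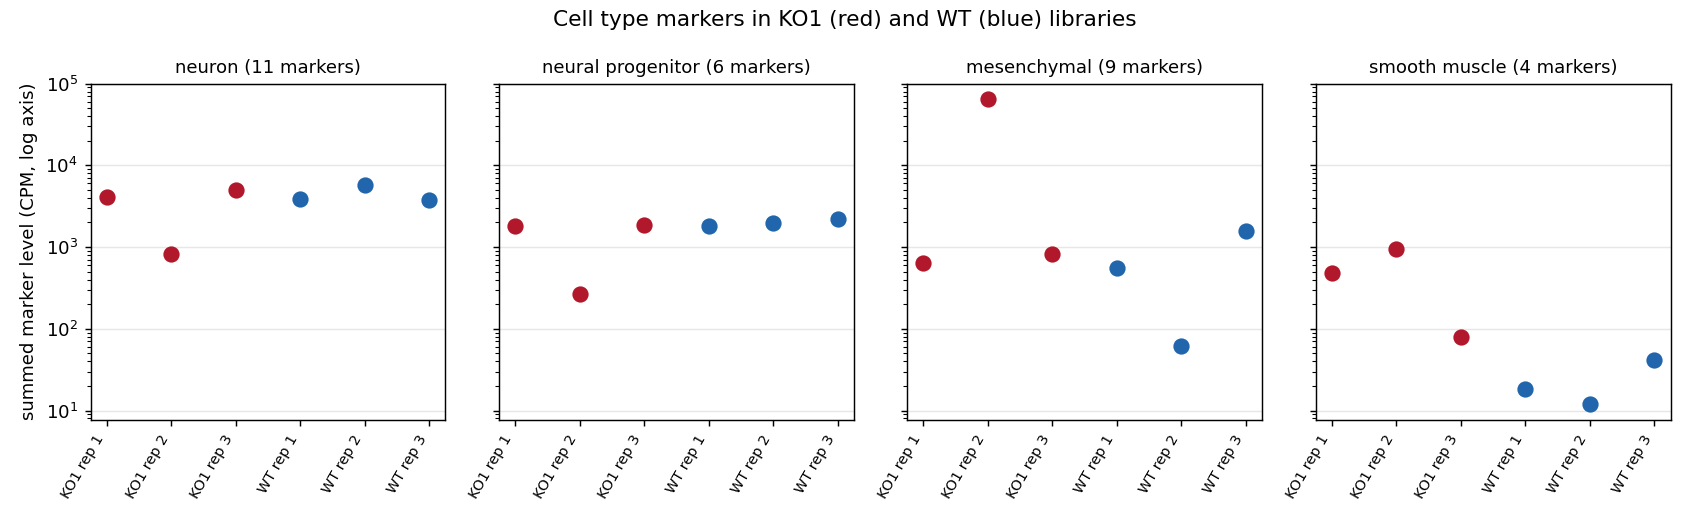
Summed level of the markers of 4 cell types in each library, on a log axis in CPM, with KO1 in red and WT in blue. KO1 replicate 2 has 821 CPM of neuron markers and 65040 CPM of mesenchymal markers, while KO1 replicates 1 and 3 lie near the WT libraries for both.

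KDM6A (X, 44873188 to 45112779, GRCh38.p14) was at 41.2, 31.6 and 34.4 CPM in KO1 and at 36.2, 36.8 and 35.4 CPM in WT. The groups overlapped, with a log2 fold change of -0.02 ± 0.15 (SE) by edgeR's quasi-likelihood test (adjusted p = 0.973). Gene-level counts cover the whole transcript, so they do not check an edit that leaves RNA in place. KDM6B, the related H3K27 demethylase, was at 143, 98.7 and 191 CPM in KO1 and at 141, 173 and 199 CPM in WT, also overlapping. Among 16 tested members of the UTX and KMT2 COMPASS list, DESeq2 called none, and the list's median log2 fold change was -0.04, against 0.01 over all genes tested. The 417 X-linked genes with a mean of at least 10 CPM had a median of -0.002.

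No gene passed the edgeR test at an adjusted p of 0.05 in the 6 libraries, and the smallest adjusted p was 0.451. At an unadjusted p under 0.05, edgeR had 1184 genes (6.55%), 768 higher (4.25%) and 416 lower (2.3%) in KO1. DESeq2, the tool named in the submitters' processing notes, called 160 genes (0.838% of 19088 with an adjusted p), 119 higher (0.623%) and 41 lower (0.215%). In counts simulated with the gene-wise dispersions of these libraries and no difference between groups, DESeq2 still called genes while edgeR called almost none. With smooth dispersions DESeq2 called few. A share of the DESeq2 calls may therefore be false, and how large a share is not known. Without KO1 replicate 2, edgeR again called 0, and DESeq2 called 163 higher (0.921%) and 109 lower (0.616%), of which 70 and 35 were also called with it. All 3 KO1 libraries lay above all 3 WT libraries for 1362 genes (7.53%) and below them for 1374 (7.6%).

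The genes most evenly higher across KO1 included regulators, secreted factors and adhesion molecules. The 15 named here have the lowest edgeR p among genes with non-overlapping groups and at least 5 CPM, edgeR called none of them, and DESeq2 called all 15. MAF, a bZIP transcription factor, was at 99.2, 110 and 117 CPM in KO1 and at 38.7, 50.0 and 43.0 CPM in WT. Its log2 fold change was 1.31 ± 0.15 (edgeR adjusted p = 0.501, DESeq2 adjusted p = 9.51e-08), and it was 1.31 without KO1 replicate 2. GAREM1, an adaptor protein downstream of growth factor receptors, was at 21.8, 26.4 and 21.1 CPM in KO1 and at 7.41, 8.57 and 7.88 CPM in WT. For both genes the gap between the groups was wider than the range within either group.

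BDNF (chromosome 11, 27654893 to 27722030), a neurotrophin that promotes dendrite growth, was at 13.3, 17.1 and 7.41 CPM in KO1 and at 1.42, 3.27 and 2.37 CPM in WT. The lowest KO1 library was over the highest WT library, as the naming rule required. The log2 fold change of BDNF was 2.41 ± 0.46 (edgeR adjusted p = 0.699, DESeq2 adjusted p = 0.000399) and 2.13 without KO1 replicate 2. BDNF protein was also a component of the medium in both groups. NTRK2, the receptor of BDNF, was at 138, 125 and 130 CPM in KO1 and at 165, 164 and 163 CPM in WT, uncalled by either tool. In the dendrite growth list, DESeq2 called 2 of 30 tested members higher, BDNF and the semaphorin receptor NRP1, and none lower, against 0.623% higher and 0.215% lower over all genes. The list's median log2 fold change was -0.11, or 0.004 without KO1 replicate 2, and DESeq2 gave no p-value for 1 of its members.

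CDKN2B (chromosome 9, 22002903 to 22009313), which encodes an inhibitor of the cyclin D kinases, was at 22.6, 18.1 and 5.98 CPM in KO1 and at 1.262, 0.843 and 1.24 CPM in WT. Its log2 fold change was 3.80 ± 0.57 (edgeR adjusted p = 0.699, DESeq2 adjusted p = 6.29e-08). CDKN2A, its neighbour and also a cell cycle inhibitor gene, was at 3.32, 1.47 and 0.859 CPM in KO1 and at 0.203, 0.141 and 0.054 CPM in WT. KO1 replicate 3 was the lowest KO1 library for both genes and still lay above every WT library, which the naming rule required of CDKN2B. All 24 tested proliferation genes had a negative log2 fold change, with a median of -0.44. Without KO1 replicate 2, 21 were negative and 3 positive, with a median of -0.18, and neither tool called any with or without it.

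SLIT2 and KITLG were among the 15, and NRP1, also called by DESeq2, was not. In the axon guidance list DESeq2 called 2 of 33 tested members higher, SLIT2 and NRP1, against 0.623% of all genes, and gave no p-value for 3. The list's median log2 fold change was 0.21, or 0.03 without KO1 replicate 2. Relative to the WT mean, its median was 0.14, 0.69 and -0.01 log2 units in KO1 replicates 1 to 3. SLIT2, a repellent for growing axons, was at 535, 619 and 305 CPM in KO1 and at 194, 172 and 126 CPM in WT. NRP1 was at 131, 104 and 89.7 CPM in KO1 and at 32.4, 60.2 and 31.3 CPM in WT. KITLG, the ligand of the KIT receptor, was at 72.3, 79.6 and 52.0 CPM in KO1 and at 28.8, 27 and 18.4 CPM in WT. No KO1 library reached down to WT for these 3 genes, which the naming rule required of SLIT2 and KITLG. DESeq2 called each of the 3 higher (adjusted p = 0.00528, 0.0242 and 0.00118). NQO1, a quinone reductase of the oxidative stress response, was at 27.5, 37.9 and 25.4 CPM in KO1 and at 6.27, 11.2 and 5.40 CPM in WT. The cadherins CDH6, PCDH7 and PCDHGC3 had log2 fold changes of 1.70, 1.64 and 1.44, and the remaining genes of the 15 were TSPEAR-AS2, TM4SF1, MATN2, RHOU and SLC2A13. PCDHGC3 shares exons with the rest of its cluster and TSPEAR-AS2 lies antisense to another gene, so their counts are uncertain.

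**Figure D2:**
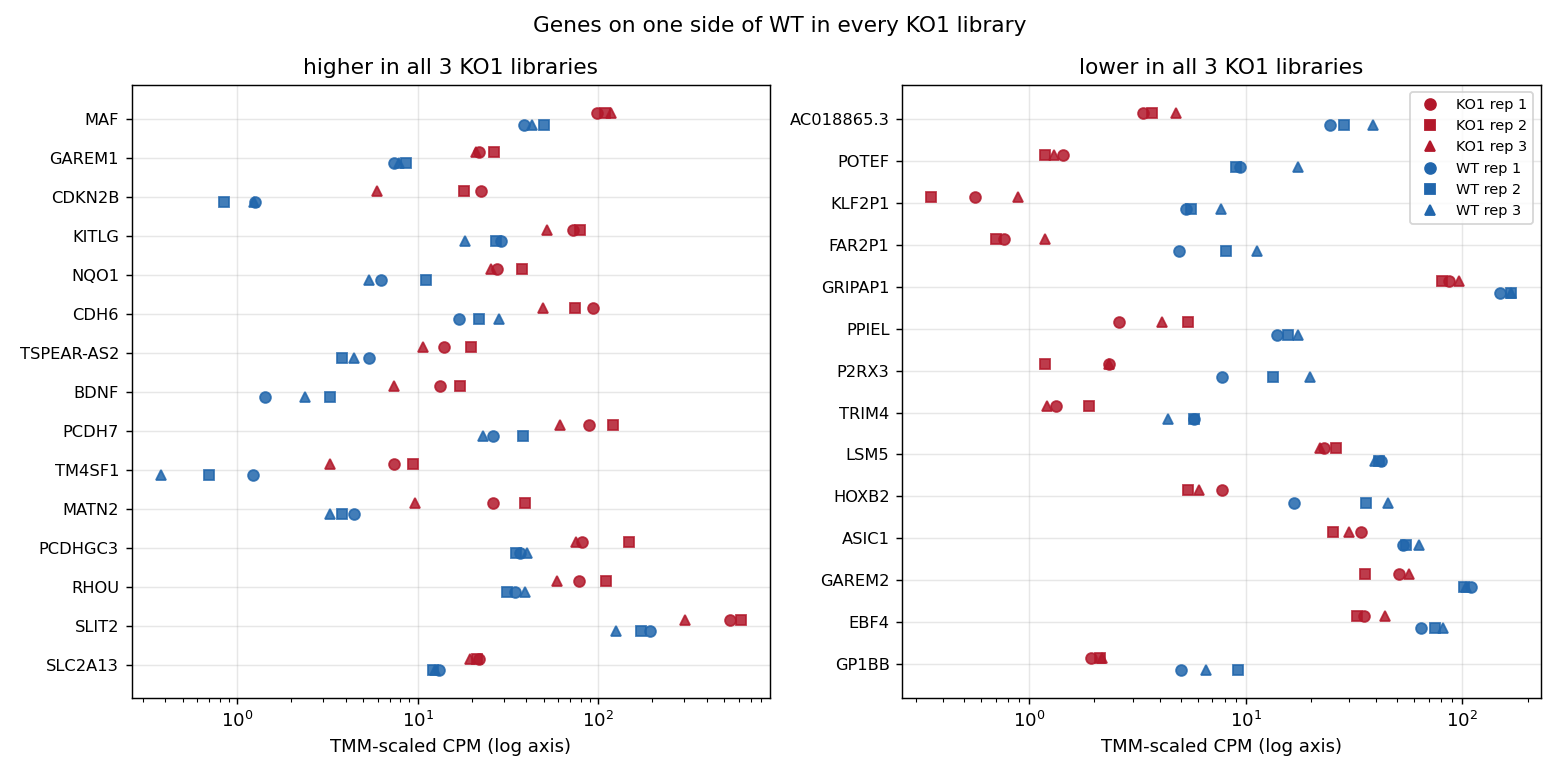
CPM on a log axis of 15 higher and 14 lower genes with the lowest edgeR p among those whose groups do not overlap, with KO1 in red above WT in blue for each gene and a marker shape per replicate. For MAF the KO1 libraries lie at 99.2 to 117 CPM and the WT libraries at 38.7 to 50.0 CPM.

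The genes most evenly lower in KO1 included the channels P2RX3 and ASIC1, HOXB2 and a group of neighbours on chromosome 2. DESeq2 called all 15 of them and edgeR none. P2RX3, a purinergic receptor channel that sensory neurons use, was at 2.35, 1.18 and 2.34 CPM in KO1 and at 7.77, 13.4 and 19.7 CPM in WT. ASIC1, an acid-sensing ion channel, was at 34.0, 25.2 and 29.8 CPM in KO1 and at 53.4, 54.7 and 63.3 CPM in WT. The groups were apart for both genes, as the naming rule required, and KO1 replicate 2 was the lowest library for each. Their log2 fold changes were -2.79 ± 0.47 and -0.94 ± 0.16 (edgeR adjusted p = 0.699 for both, DESeq2 adjusted p = 1.8e-05 and 0.00337). Among ion channels, DESeq2 called 0 of 24 potassium and sodium channel genes and 1 of 18 calcium channel genes, CACNA2D3. It gave no p-value for 1 other calcium channel gene. It called CACNA2D3 lower, against 0.215% of all genes, and did not call it without KO1 replicate 2 (adjusted p = 0.143). All 3 KO1 libraries lay below WT for 4 of the 18 calcium channel genes, against 7.6% of all genes, and above WT for 0. They lay below WT for 2 and above WT for 2 of the 24 potassium and sodium channel genes.

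GAD1 and DLX2, the GABAergic genes named here, did not separate the groups, which does not speak for the rest of the GABAergic list. In that list 14 of 15 tested members had a negative log2 fold change, with a median of -1.06 and of -0.79 without KO1 replicate 2. GAD1, which makes GABA, was at 8.93, 2.24 and 7.02 CPM in KO1 and at 1.22, 11.8 and 14.7 CPM in WT. DLX2, a regulator of interneuron fate, was at 7.86, 3.24 and 13.7 CPM in KO1 and at 3.58, 43.3 and 45.1 CPM in WT. WT replicate 1 was as low as the KO1 libraries for both.

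HOXB2 (chromosome 17, 48542655 to 48545109), a hindbrain patterning gene, was at 7.81, 5.42 and 6.07 CPM in KO1 and at 16.6, 36 and 45.2 CPM in WT. Its log2 fold change was -2.34 ± 0.40 (edgeR adjusted p = 0.699, DESeq2 adjusted p = 0.000119). HOXB3 beside it was at 35.5, 31.9 and 18.3 CPM in KO1 and at 60.1, 143 and 172 CPM in WT. These were the 2 DESeq2 calls among the 14 HOX genes with enough counts, out of 39 listed, against 0.215% of all genes called lower. Without KO1 replicate 2 DESeq2 called 4 lower, HOXB2, HOXB3, HOXD3 and HOXD4, in a fit that called 0.616% of all genes lower. All 14 had a negative log2 fold change, with a median of -2.68, but the WT libraries were unequal. HOXB4 was at 7.09, 6.12 and 1.39 CPM in KO1 and at 5.58, 39.4 and 50.5 CPM in WT, so that WT replicate 1 lay within KO1.

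A run of neighbours on chromosome 2 were low in every KO1 library. FAR2P1, KLF2P1, POTEF and MED15P9 lie between 130025998 and 130139413. POTEF was at 1.43, 1.18 and 1.30 CPM in KO1 and at 9.44, 9.0 and 17.5 CPM in WT, with a log2 fold change of -3.19 ± 0.36. The log2 fold changes of FAR2P1, KLF2P1 and MED15P9 were -3.17, -3.32 and -2.61, and DESeq2 called the first 2 of them and POTEF. The next tested genes on the same side, CCDC74B, SMPD4 and MZT2B, had log2 fold changes of -0.28, 0.30 and 0.04 and overlapping groups. On the other side, RAB6C-AS1 had a log2 fold change of 0.72. POTEF has near-identical relatives and the other 3 are pseudogenes, so how reads were divided among copies makes these values uncertain. AC018865.3, for which no position was matched, had the lowest edgeR p of all genes, at 3.37, 3.71 and 4.77 CPM in KO1 and 24.5, 28.5 and 38.8 CPM in WT.

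Further genes of these 15 covered several roles. GRIPAP1, which binds a scaffold of glutamate receptors, was at 86.6, 80.3 and 97.0 CPM in KO1 and at 149, 169 and 167 CPM in WT. GAREM2, a relative of GAREM1, was at 50.9, 35.4 and 56.8 CPM in KO1 and at 109, 102 and 104 CPM in WT. LSM5, a subunit of a ring that binds U6 RNA, was at 22.9, 26.0 and 21.9 CPM in KO1 and at 42.2, 41.2 and 39.3 CPM in WT. KO1 libraries lay below WT by more than the spread within either group for these 3 genes. PPIEL, TRIM4, EBF4 and GP1BB had log2 fold changes of -1.96, -1.85, -0.98 and -1.74.

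Genes of antigen presentation were also among the DESeq2 calls in the lower direction. HLA-C, a class I molecule, was at 48.9, 33.6 and 48.2 CPM in KO1 and at 156, 96.5 and 83.0 CPM in WT. NLRC5, an activator of class I genes, was at 0.306, 1.59 and 1.90 CPM in KO1 and at 41.8, 11.1 and 2.16 CPM in WT. The WT libraries differed widely for NLRC5 and KO1 replicate 3 was close to WT replicate 3. Without KO1 replicate 2 the DESeq2 adjusted p was 0.00612 for HLA-C and 0.198 for NLRC5. HLA genes have many alleles and close relatives, which makes their counts uncertain.

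Contractile genes were higher in KO1 with a large spread between its libraries. DESeq2 gave no p-value for 1 of 16 tested smooth muscle and contractile genes. Of the 16, it called 6 higher, ACTA2, TAGLN, MYL9, TPM1, CALD1 and ACTG2, and none lower, against 0.623% higher over all genes. Without KO1 replicate 2 it called 3 of them, TAGLN, TPM1 and CALD1, against 0.921% of all genes called higher in that fit. TAGLN, an actin-binding protein, was at 316, 536 and 51.5 CPM in KO1 and at 9.85, 6.11 and 19.3 CPM in WT. TPM1, a tropomyosin, was at 886, 860 and 227 CPM in KO1 and at 109, 66.1 and 120 CPM in WT. Every KO1 library was above WT for both, and KO1 replicate 3 was the lowest of the 3. The list's median relative to the WT mean was 1.78, 3.69 and 0.44 log2 units in KO1 replicates 1 to 3, and its median log2 fold change was 2.87, or 1.25 without KO1 replicate 2. Without that library the DESeq2 adjusted p was 0.00837 for TAGLN, 0.0311 for TPM1 and 0.185 for ACTA2. The mesenchymal marker sum was highest in KO1 replicate 2 as well, but KO1 replicates 1 and 3 (646 and 820 CPM) lay below WT replicate 3 (1568 CPM). Its part in the contractile values was not tested.

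The regulators and the receptor of non-neural tissue named here were also highest in KO1 replicate 2. Of 18 tested non-neural regulators, DESeq2 called 3 higher, TBX2, RUNX1 and MSX2, and gave no p-value for 7. Of 8 tested endothelial and blood genes it called 1 higher, KDR, and gave no p-value for 2. Over all genes it called 0.623% higher. The median log2 fold change of the non-neural regulators was 3.39, or 0.21 without KO1 replicate 2. Without that library, 7 of the 18 were negative and DESeq2 called RUNX1 and MSX2. RUNX1, a blood and mesenchyme regulator, was at 5.26, 31 and 1.1 CPM in KO1 and at 0.611, 0.281 and 0.216 CPM in WT. MSX2, a homeobox target of BMP signalling, was at 14.2, 89.1 and 11.3 CPM in KO1 and at 4.64, 2.21 and 5.07 CPM in WT. KDR, a receptor for VEGF, was at 18.3, 44.6 and 1.93 CPM in KO1 and at 0.814, 0.949 and 1.67 CPM in WT. KO1 replicate 2 was the highest library for RUNX1, MSX2 and KDR, and KO1 replicate 3 was the closest to WT. FOSL2, an AP-1 subunit, was at 38, 54.6 and 17.7 CPM in KO1 and at 10.9, 5.90 and 6.21 CPM in WT, and DESeq2 called it with all libraries (adjusted p = 0.00316) and without KO1 replicate 2 (adjusted p = 0.0018).

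The medians of the collagen and neuronal lists depended on KO1 replicate 2. The 22 mesenchymal and fibroblast genes had a median log2 fold change of 3.56 in the 6 libraries and of -0.06 without KO1 replicate 2. DESeq2 gave no p-value for 15 of these 22 genes in the 6 libraries, COL1A1 and FN1 among them, so they could not be called, and it called none of the other 7. Over all genes tested it gave none for 297. COL1A1, a fibrillar collagen, was at 281, 28895 and 260 CPM in KO1 and at 126, 7.84 and 390 CPM in WT. The 26 pan-neuronal genes had a median of -0.46 with KO1 replicate 2 and of -0.03 without it, and the medians relative to the WT mean were -0.03, -2.13 and 0.08 log2 units in KO1 replicates 1 to 3. Presynaptic genes had -0.45 with it and -0.10 without it, and neural progenitor genes had -0.66 and -0.31. Neither tool called a gene of these 3 neural lists in the 6 libraries. Without KO1 replicate 2, DESeq2 called 2 of 31 presynaptic genes lower, SYN3, a synapsin (adjusted p = 0.000956), and CPLX1, a complexin (adjusted p = 0.0485). It also called 2 of 27 progenitor genes lower in that fit, where 0.616% of all genes were called lower. SYN3 was at 10.6, 3.18 and 13.8 CPM in KO1 and at 27.7, 30.5 and 22.1 CPM in WT.

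**Figure D3:**
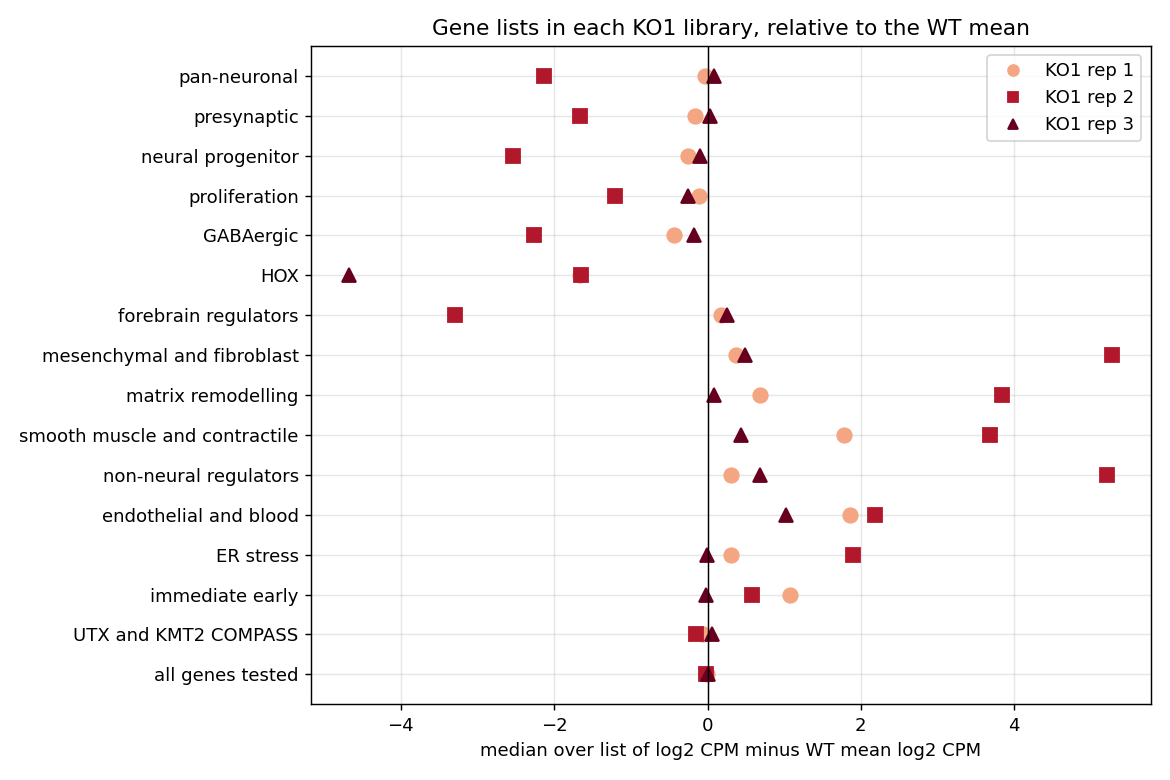
Median over each gene list of log2 CPM minus the WT mean, with 1 point per KO1 library and a line at 0. KO1 replicate 2 lies at 5.28 for mesenchymal genes and -2.13 for pan-neuronal genes, where KO1 replicates 1 and 3 lie between -0.03 and 0.49, while all 3 libraries lie below -1.6 for HOX genes.

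Between KO1 replicates 1 and 3 and WT, further regional and progenitor genes were called by DESeq2 and none by edgeR. CRB1, a polarity protein of neuroepithelium, was at 5.77, 0.530 and 9.48 CPM in KO1 and at 33.8, 26.0 and 29.1 CPM in WT (DESeq2 adjusted p = 4.57e-09 without KO1 replicate 2). SOX3, a progenitor transcription factor, was at 116, 13.3 and 182 CPM in KO1 and at 310, 337 and 451 CPM in WT (DESeq2 adjusted p = 0.000304 in the same fit). OTX2, a forebrain and midbrain regulator, was at 163, 14.5 and 106 CPM in KO1 and at 41.0, 48.2 and 54.7 CPM in WT (DESeq2 adjusted p = 1.19e-06 in the same fit). KO1 replicate 2 was below WT for OTX2, opposite to the other KO1 libraries. GMNC, a regulator of multiciliated cells, was at 8.83, 1.30 and 9.69 CPM in KO1 and at 1.34, 0.843 and 0.648 CPM in WT.

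Each KO1 library also had genes of its own, chosen by the gap to the nearest other KO1 library and given without a test. FGF17, a midbrain-hindbrain growth factor, was at 231 CPM in KO1 replicate 1, against 2.35 and 13.9 CPM in KO1 replicates 2 and 3 and 4.75 to 5.97 CPM in WT. EGFL6, a secreted matrix protein, was at 3077 CPM in KO1 replicate 2, against 4.64 and 15.7 CPM in the other KO1 libraries. FEZF2, a regulator of deep-layer cortical neurons, was at 3.94 CPM in KO1 replicate 2, against 130 and 138 CPM in KO1 replicates 1 and 3 and 60.9 to 228 CPM in WT. FGF18 was at 1.90 CPM in KO1 replicate 3, within the WT range, against 21.3 and 22.3 CPM in the other KO1 libraries.

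H3K27me3 peaks, from 1 deposited list per genotype, were set beside the RNA calls. The lists hold 10950 peaks over 16.7 Mb for KO and 10340 peaks over 14.6 Mb for WT, and the sources used here do not say whether the KO list pools lines. Of 105 placed genes that DESeq2 called higher in KO1, 41.0% had a KO peak and 53.3% a WT peak within 2 kb of a gene end. Of 37 placed genes called lower, 43.2% had a KO peak and 40.5% a WT peak. Over 15359 placed genes tested the shares were 15.7% and 15%. Among genes with a WT mean under 20 CPM, 56.8% of those called higher had a WT peak, against 24.8% of all such genes. The wider set of genes with all 3 KO1 libraries above WT did not show this excess: of 1200 placed genes, 13% had a KO peak and 15.6% a WT peak, and 26.7% had a WT peak at a WT mean under 20 CPM. Of 1213 placed genes with all 3 KO1 libraries below WT, 16.2% had a KO peak and 12.6% a WT peak. No test was made of these shares, and the lists have no replicate.

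A WT peak without a KO peak was present beside 14 of the 105 higher genes (13.3%), against 1.81% of all placed genes and 3.67% of those with all 3 KO1 libraries above WT. ACTA2, TPM1, FOSL2, NRP1 and WNT9A were among the 14. The KO list alone had a peak beside ASIC1 and GAREM2, 2 of the 37 genes called lower (5.41%), and beside SLC7A8, 1 of the 105 called higher (0.952%). It alone had one beside 2.53% of all placed genes and 4.37% of those with all 3 KO1 libraries below WT. The WT list alone had one beside GRIPAP1, called lower. The peaks beside NRP1, ASIC1 and GRIPAP1 lay outside the gene span. Both lists had one beside BDNF (fold over control of 8.87 in KO and 8.57 in WT, the authors' values), CDKN2B, CDKN2A, HOXB2 and HOXB3. MAF, GAREM1, KITLG, SLIT2 and P2RX3 had a peak in neither list within this window.

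**Figure D4:**
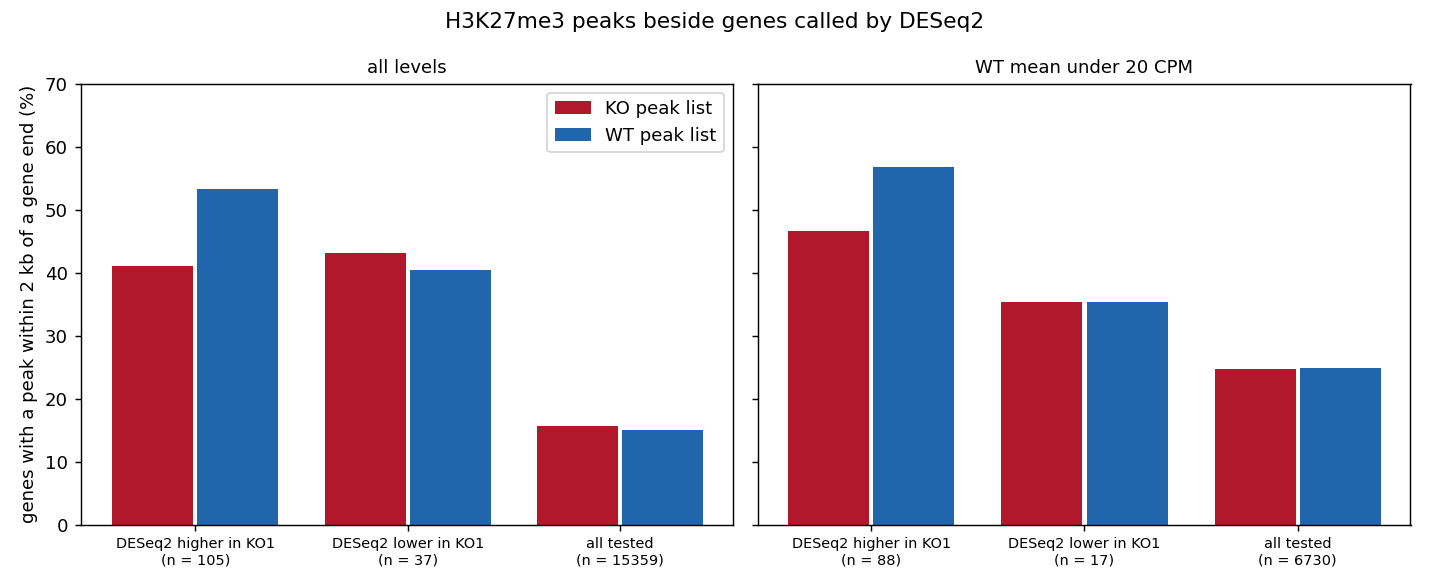
Share of genes with an H3K27me3 peak within 2 kb of either gene end, in percent, in the KO list (red) and the WT list (blue), for genes called by DESeq2 and all genes tested, at all levels (left) and at a WT mean under 20 CPM (right). Genes called higher have a WT peak in 53.3% of cases, against 15% of all genes tested.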

How the data were processed

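The authors deposited estimated counts per gene symbol, which the submitters' processing notes tie to Salmon 1.1.0 and GRCh38. The annotation and any use of strand are not stated. The deposited H3K27me3 lists give each peak's fold ratio over control. Per the file headers, MACS2 2.2.7.1 called the peaks (q threshold 0.01).

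Counts were rounded. edgeR 4.0.16 in R 4.3.3 tested genes kept by filterByExpr after TMM scaling, by its quasi-likelihood test with Benjamini-Hochberg adjustment at 0.05. DESeq2 1.42.0 and limma 3.58.1 (voom) were alternatives. On data simulated with the gene-wise dispersions of these libraries, DESeq2 made more false calls than its threshold allows and edgeR few. With smooth dispersions DESeq2 made few.

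The genes and lists were chosen with earlier results of these data known. The naming rule took 15 genes per direction (lowest edgeR p, groups apart, at least 5 CPM), up to 4 per list, the 10 lowest p per direction without KO1 replicate 2, the largest gaps per KO1 library (at least 20 CPM), KDM6A and KDM6B. GAD1, NLRC5, COL1A1, COL3A1, the marker and neighbour genes, and the list members MYL9, ACTG2, HOXD3 and HOXD4 were named after their values were seen, and not every gene within the rule is described. A gene that meets the rule is not reported here. Gene positions are RefSeq GRCh38.p14. H3K36me3 was not used here. Weakly expressed genes are the least precise at these depths.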

Additional observations from a re-analysis of the deposited data

How the results depend on the processing

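For KO1 against WT, the edgeR count of 0 genes held under RLE and upper quartile scaling, no filter, a mean of at least 1 CPM, a robust fit, all 8 libraries in 3 groups, voom with sample weights, and with each library left out. The replicate block also gave 0 calls. Deviations of same-numbered libraries from their group means correlated at 0.069, -0.324 and -0.221. Those of differently numbered libraries correlated at -0.238 to 0.341. With 3 libraries per group, these values cannot show whether replicate numbers pair the libraries. DESeq2 called 160 genes, 119 higher and 41 lower. DESeq2 called 258 (209 higher, 49 lower) without KO1 replicate 1, 272 (163 and 109) without KO1 replicate 2 and 734 (617 and 117) without KO1 replicate 3. It called 114 (67 and 47) without WT replicate 1, 62 (44 and 18) without WT replicate 2 and 72 (51 and 21) without WT replicate 3. In these 6 fits, 21 to 30 of the 30 evenly higher or lower genes were called. Those genes were picked from the same libraries, so these counts are not an independent check of them. The cause of these shifts was not tested. The KDM6A log2 fold change, uncalled, changed sign. It was 0.062 with voom, 0.063 and 0.0070 with DESeq2 without KO1 replicates 2 and 3, and -0.132 to 0.069 with edgeR with 1 library left out. A window of 5 kb, the whole gene span and a window at start sites gave 55.2% to 56.4% of higher genes with a WT peak. The start-site window, the level of 20 CPM and the DESeq2 leave-outs other than KO1 replicate 2 were added after seeing the data.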
